A study of Mus musculus with 7 samples.

Results

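The regions described here are the 28 of 93611 regions in the deposited table that were assigned to 1 of 4 interleukin 1 family genes and lay within 100 kb of its transcription start site (TSS). Il1a and Il1b held 10 regions each, Il1rn held 7 and Il18 held 1. The first 3 genes are on mouse chromosome 2 and Il18 is on chromosome 9. The signal was chromatin immunoprecipitation sequencing (ChIP-seq) of 2 NF-kB subunits, RelA and RelB, in bone marrow-derived dendritic cells (BMDCs) of C57BL/6 mice, antigen-presenting cells grown from marrow in 20 ng/ml of GM-CSF plus 10 ng/ml of IL-4. The groups were RelA ChIP from RelBko cells and from WT cells after 1 h of lipopolysaccharide (LPS, a bacterial cell wall component) at 10 ng/mL; RelB ChIP from RelBko cells and from WT cells after 1 h of LPS; RelB ChIP from RelBko cells and from WT cells before LPS (0 h); and input DNA of WT cells. Each group was 1 library, so no difference below has a replicate check, and no test or p-value is given. The labels do not give the construction of the RelBko allele, the number of animals behind a library or the time and treatment of the input. RelA ChIP at 0 h and RelA ChIP from cells without RelA were not analysed here, so RelA enrichment was called against input only. By its title and design the series sets RelA binding in cells that lack RelB against WT cells, and the regions below give that comparison at the interleukin 1 family.

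Interleukin 1 alpha (Il1a) and interleukin 1 beta (Il1b) are inflammatory cytokines that act through the same receptor, and the interleukin 1 receptor antagonist (Il1rn) occupies that receptor without signalling. Interleukin 18 (Il18) is a related cytokine that acts on its own receptor and drives interferon gamma production by lymphocytes; like interleukin 1 beta, it is made as a precursor that is cut by caspase-1 in the inflammasome. Receptors of the family signal through Myd88 to NF-kB, and Il1b is a long-known NF-kB target gene in myeloid cells. RelA carries most of the rapid NF-kB response to LPS, whereas RelB is studied mainly as the noncanonical partner of p52 and as a factor of dendritic cell maturation. ChIP measures the protein on DNA and not the transcript, so no value below is an expression level.

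The promoter sequences are shown first because 2 of the strongest regions lay on a promoter while no region was assigned to the Il1a promoter. In mm9 coordinates, the Il1b promoter region (chr2:129196798-129197156) ran from -282 to 78 bp around the TSS, and thus over all 250 bases printed. The Il1rn promoter region (chr2:24200615-24200973) ran from -197 to 163 bp around one of the more downstream start sites used in the table. The Il1a region nearest its TSS ended at -1560 bp, and the single Il18 region began 3 bp downstream of the TSS, so no Il18 sequence is printed. The letters are the 250 bases before the TSS, 5′ to 3′ on the gene's strand, from RefSeq in GRCm38.p6 (Il1b at chr2:129371140-129371389, minus strand; Il1rn at chr2:24345041-24345290, plus strand; Il1a at chr2:129309973-129310222, minus strand). Capitals mark TATAAA and any match to the NF-kB consensus with 1 mismatch allowed, on either strand.
Il1b: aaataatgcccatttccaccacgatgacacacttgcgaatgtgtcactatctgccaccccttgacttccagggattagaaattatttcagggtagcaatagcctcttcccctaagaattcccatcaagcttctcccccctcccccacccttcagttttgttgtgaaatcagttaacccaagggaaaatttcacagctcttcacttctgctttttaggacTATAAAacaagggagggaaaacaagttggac
Il1rn: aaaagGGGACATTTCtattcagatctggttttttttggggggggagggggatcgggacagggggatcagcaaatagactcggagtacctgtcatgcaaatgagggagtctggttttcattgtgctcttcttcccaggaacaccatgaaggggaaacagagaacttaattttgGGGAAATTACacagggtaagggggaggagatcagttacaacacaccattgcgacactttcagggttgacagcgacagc
Il1a: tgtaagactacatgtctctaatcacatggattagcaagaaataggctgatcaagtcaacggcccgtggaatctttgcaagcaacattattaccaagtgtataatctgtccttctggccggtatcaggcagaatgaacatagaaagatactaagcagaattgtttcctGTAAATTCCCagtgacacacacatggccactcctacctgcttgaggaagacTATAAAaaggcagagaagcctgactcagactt
None of the 3 sequences held the exact NF-kB consensus, which was in 3.90% of 32851 RefSeq mouse promoters of the same length. With 1 mismatch allowed, a version chosen after the sequences were seen, 39.6% of promoters held a match. The Il1rn promoter held 2 of these, at -245 to -236, outside the bound region, and at -78 to -69, inside it, the Il1a promoter held 1, at -83 to -74 on the opposite strand, and the Il1b promoter held 0. TATAAA was at -31 to -26 in Il1b and at -32 to -27 in Il1a, against 12.4% of promoters with it on either strand. The myeloid PU.1 core GAGGAA (23.3% of promoters) and the AP-1 site TGANTCA (6.75% of promoters) were each found in the Il1a promoter, at -41 to -36 and at -12 to -6, and not in the other 2 printed sequences. Before the most upstream Il1rn start, not printed, TGANTCA was at -141 to -135. Before the most downstream Il1rn start, also not printed, a further NF-kB match with 1 mismatch was at -51 to -42. It lies past the printed bases and inside the bound region. A match describes letters in this window and is not a binding site, and a window without a match says nothing of RelA or RelB there.

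Signal is given as RPKM, the authors' reads scaled to region length and library total. A region was called enriched at 2 RPKM or more and 2-fold or more over input, after adding 0.5 RPKM to both values. Of the 28 regions, 27 were enriched for RelA in RelBko at 1 h and 28 in WT. With the RelB antibody at 1 h, 5 were enriched in RelBko and 24 in WT, and at 0 h 12 were enriched in RelBko and 25 in WT. Over all regions of the table the same shares were 75.9% and 82.0% for RelA in RelBko and WT, 6.36% and 81.7% for RelB at 1 h in RelBko and WT, and 24.1% and 75.9% for RelB at 0 h in RelBko and WT. In the input the 28 regions held between 0.418 and 2.34 RPKM. By the table's classes, 20 of the 28 were intergenic, 2 were promoters, 2 lay in introns, 1 in an exon, 1 in a 5′ untranslated region and 2 in a class cut to the letters non-. The heat map of the 28 regions shows these levels.

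**Figure D1:**
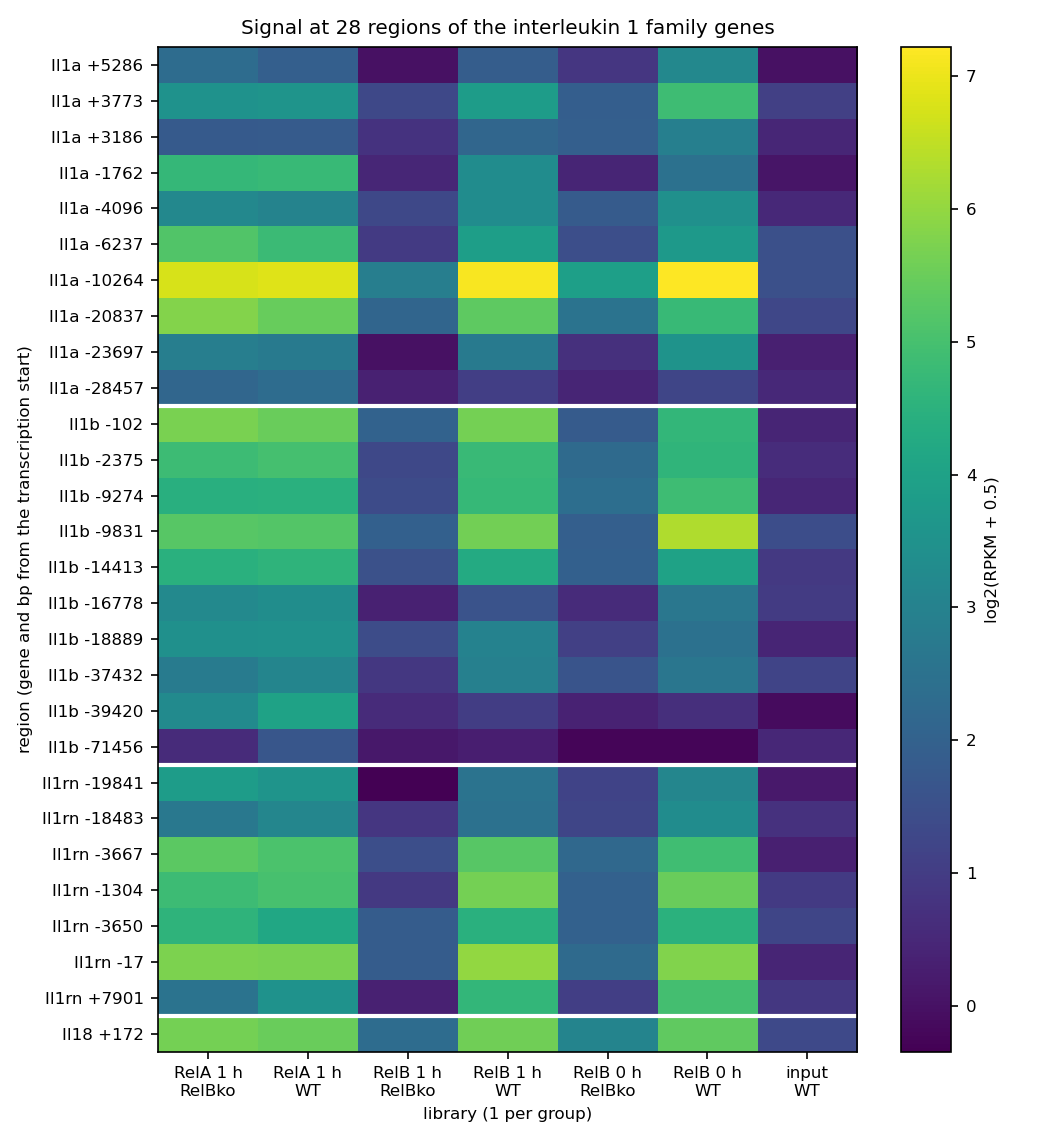
Log2(RPKM + 0.5) at each of the 28 regions (rows, by gene and by the table's distance to the TSS in bp) in each of the 7 libraries (columns); white lines part the genes. The 2 RelA columns and the 2 WT RelB columns are brightest at the Il1a region at -10264 (108 to 149 RPKM), while the 2 RelBko columns of the RelB antibody are dark at most rows.

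The libraries held 13188833 to 35064429 reads. In the RelA libraries 37.2% (RelBko) and 37.9% (WT) of reads fell in the regions. In the RelB libraries the share was 4.62% (RelBko) and 42.4% (WT) at 1 h and 7.41% (RelBko) and 38.4% (WT) at 0 h, against 3.52% in the input. The low RelBko shares with the RelB antibody are the check of the targeted protein, and every RelB comparison between genotypes below moves with them. At the strongest region of each of 8 dendritic cell marker genes, RelA in WT gave 52.7 to 119 RPKM. At 5 of 6 neutrophil, 3 of 4 B cell and 3 of 4 T cell marker genes with a region, RelA in WT gave 3.15 to 15.5, 2.97 to 10.2 and 2.47 to 86.3 RPKM. These levels describe binding near the genes and not the makeup of the cultures, whose part in the results was not tested.

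Il1a, the agonist that is also stored in cells and released on damage, had the strongest single region of the family, at -10264 bp from its TSS (chr2:129145778-129146166, intergenic). It held 108 RPKM in RelBko RelA, 114 in WT RelA, 6.86 in RelBko RelB at 1 h, 142 in WT RelB at 1 h, 14.6 in RelBko RelB at 0 h, 149 in WT RelB at 0 h and 2.34 in the input. Among the 93611 regions it ranked number 75 in RelBko RelA and 61 in WT RelA, 147 in RelBko RelB and 39 in WT RelB at 1 h, and 62 in RelBko RelB and 92 in WT RelB at 0 h. The region was thus among the highest of the table in all 6 ChIP libraries, at low absolute levels in the 2 RelBko RelB libraries, while in the input it ranked number 2054. RelA there was 0.947 times as high in RelBko as in WT (95% interval 0.861 to 1.04, from 1007 and 781 reads). In a library of many cells, fewer cells with bound protein and less binding per cell cannot be told apart. The intervals in this text are exact and cover the counting of reads only.

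RelB at this Il1a region was 0.0483 times as high in RelBko as in WT at 1 h (0.0359 to 0.0636) and 0.0979 times at 0 h (0.0792 to 0.120). In WT it was 0.955 times as high at 1 h as at 0 h (0.894 to 1.02), an interval that holds equal signal. The low signal left in RelBko was itself lower at 1 h than at 0 h, at 0.471 times (0.330 to 0.665), beside a median log2 difference of -0.93 over all compared regions. RelA was 0.804 times as high as RelB in WT at 1 h (0.737 to 0.876); since the antibodies differ, such a ratio orders regions and does not compare amounts of protein.

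The region nearest the Il1a TSS, at -1762 (chr2:129137269-129137672, intergenic), had another balance of both proteins. It held 25.5 RPKM in RelBko RelA, 26.5 in WT RelA, 0.889 in RelBko RelB at 1 h, 9.49 in WT RelB at 1 h, 0.849 in RelBko RelB at 0 h, 5.01 in WT RelB at 0 h and 0.563 in the input. RelA was 0.965 times as high in RelBko as in WT (0.795 to 1.17) and 2.79 times as high as RelB in WT (2.19 to 3.56). RelB in WT was 1.89 times as high at 1 h as at 0 h (1.39 to 2.59), short of 2-fold. The 2 RelBko RelB values were close to the input here. The other 8 Il1a regions spanned 2.95 to 56.3 RPKM for RelA in RelBko and 3.01 to 43.7 RPKM in WT.

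Il1b, the main secreted agonist of the family, had its highest mean RPKM over the 6 ChIP libraries at -9831 bp from its TSS (chr2:129206518-129206894, intergenic), a mean set by WT RelB at 0 h; the promoter region was higher in 4 of the 6 libraries. The values were 37.5 RPKM in RelBko RelA, 36.3 in WT RelA, 3.40 in RelBko RelB at 1 h, 48.7 in WT RelB at 1 h, 3.34 in RelBko RelB at 0 h, 79.4 in WT RelB at 0 h and 2.21 in the input. RelB in WT was lower at 1 h, at 0.613 times its 0 h level (0.551 to 0.682). RelA was 1.03 times as high in RelBko as in WT (0.873 to 1.22). Among its own libraries the upstream region was highest for WT RelB before LPS, and the RelA interval held equal signal.

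The Il1b promoter region, centred at -102, whose sequence is printed above, had the opposite order of times. It held 51.2 RPKM in RelBko RelA, 44.7 in WT RelA, 3.57 in RelBko RelB at 1 h, 49.3 in WT RelB at 1 h, 3.03 in RelBko RelB at 0 h, 24.9 in WT RelB at 0 h and 0.845 in the input. RelB in WT was 1.98 times as high at 1 h as at 0 h (1.72 to 2.29), or 0.97 on the log2 scale after the pseudocount, just short of the 2-fold called here. The upstream and promoter regions of Il1b thus differed from 0 h in opposite directions in WT, with intervals on opposite sides of 1. In RelBko the same ratio with the RelB antibody was 1.18 (0.624 to 2.27) at the promoter and 1.02 (0.551 to 1.90) upstream, on 19 to 25 reads per library. The upstream region was enriched in neither RelBko library of that antibody, so it was not among the regions compared between times in RelBko. RelA at the promoter was 1.15 times as high in RelBko as in WT (0.984 to 1.34). Apart from these and a weak distal region, the other 7 Il1b regions spanned 6.50 to 27.9 RPKM for RelA in RelBko and 8.10 to 31.5 RPKM in WT.

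Il1b also held the only one of the 28 regions called different in RelA between genotypes. It lay at -71456 (chr2:129268163-129268500, intergenic) and was the weakest of the 28, with 0.988 RPKM in RelBko RelA and 2.69 in WT RelA, or 8 and 16 reads. It was enriched for RelA in WT and not in RelBko. The call thus rests on a region compared only through WT, where it is high. The RelB antibody gave 0.607 RPKM in RelBko and 0.729 in WT at 1 h and 0.338 in both genotypes at 0 h, and the input gave 0.897. The ratio of RelBko over WT was 0.367 (0.136 to 0.909), a log2 difference of -1.10. The RelA level of RelBko was close to that of the input here.

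Il1rn, the antagonist, had its strongest region on the promoter printed above, centred at -17. It held 52.8 RPKM in RelBko RelA, 51.9 in WT RelA, 3.14 in RelBko RelB at 1 h, 62.8 in WT RelB at 1 h, 4.30 in RelBko RelB at 0 h, 54.7 in WT RelB at 0 h and 0.845 in the input. RelA was 1.02 times as high in RelBko as in WT (0.880 to 1.18). RelB in WT was 1.15 times as high at 1 h as at 0 h (1.03 to 1.28), a smaller difference than at the Il1b promoter, where the interval began at 1.72. The other 6 Il1rn regions spanned 5.31 to 39.7 RPKM for RelA in RelBko and 8.16 to 33.3 RPKM in WT.

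Il18 had a single region, in the class of 5′ untranslated regions and centred 172 bp downstream of the TSS (chr9:50362809-50363146). It held 49.2 RPKM in RelBko RelA, 44.7 in WT RelA, 4.55 in RelBko RelB at 1 h, 47.8 in WT RelB at 1 h, 7.95 in RelBko RelB at 0 h, 41.3 in WT RelB at 0 h and 2.02 in the input. Its RelA was 1.10 times as high in RelBko as in WT (0.938 to 1.29), and its RelB in WT was 1.16 times as high at 1 h as at 0 h (1.02 to 1.32). Ordered by mean RPKM of the strongest region over the 6 ChIP libraries, the genes ran from Il1a (89.0) through Il1rn (38.3) and Il1b (34.8) to Il18 (32.6).

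**Figure D2:**
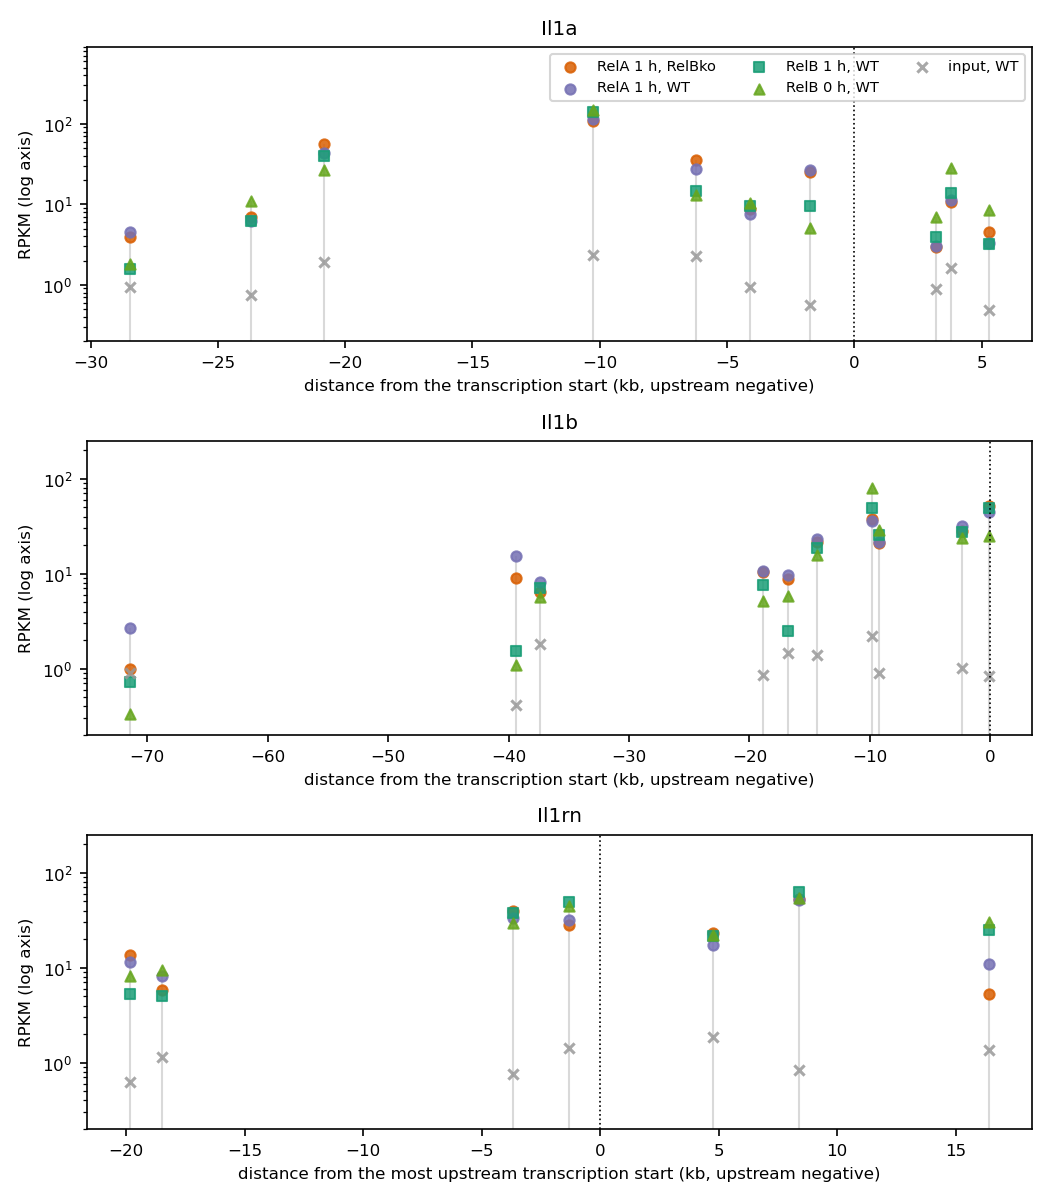
RPKM (log axis) of each region of Il1a, Il1b and Il1rn against its distance from the TSS in kb, for RelA at 1 h in RelBko and in WT, RelB in WT at 1 h and at 0 h, and input; for Il1rn all distances are from its most upstream start. The RelA points of RelBko and WT lie on each other at most regions, the Il1b region at -71456 stands apart from the rest, and RelB at 0 h stands above RelB at 1 h at -9831 of Il1b and below it at the Il1b promoter.

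Between genotypes, RelA at the interleukin 1 family differed by less than 2-fold at 27 of 28 regions once 0.5 RPKM was added to both values (2 regions differed by more before it was added), and for each of the 4 genes the interval of the summed reads held equal signal. Regions were compared where at least 1 of both libraries was enriched, and a difference of 2-fold or more, after the pseudocount, was called. Of 28 regions compared, 0 were called higher and 1 lower in RelBko, against 1.3% higher and 4.94% lower of all compared regions. The 1 called lower was compared only through WT, where it is high. The median log2 difference was -0.03 over the members and -0.06 over all compared regions. The interval of the ratio held 1 at 21 of 28 regions, lay above 1 at 4 and below 1 at 3. These intervals were counted at the members only, with no share of all regions to set beside them. Pooled over the 28 regions, RelBko held 5907 RelA reads and WT 4260, a ratio after scaling of 1.02 (0.979 to 1.06). By gene the pooled ratio was 1.05 for Il1a (0.986 to 1.12), 0.952 for Il1b (0.885 to 1.03), 1.03 for Il1rn (0.950 to 1.11) and 1.10 for Il18 (0.938 to 1.29).

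The regions next to the 2-fold limit were named after their values were seen. The Il1rn region at 7901 bp downstream held 5.31 RPKM of RelA in RelBko and 11.0 in WT, a ratio of 0.483 (0.331 to 0.699) and a log2 difference after the pseudocount of -0.98. It was also the only one of the 28 called lower for RelA than for RelB in WT, with 11.0 RPKM of RelA and 24.9 of RelB, a ratio of 0.442 (0.338 to 0.571). The Il1b region at -39420 held 9.08 RPKM of RelA in RelBko and 15.5 in WT, a ratio of 0.586 (0.430 to 0.796). At that region RelA in WT was 10.0 times as high as RelB (5.86 to 18.2), which itself was at 1.55 RPKM.

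**Figure D3:**
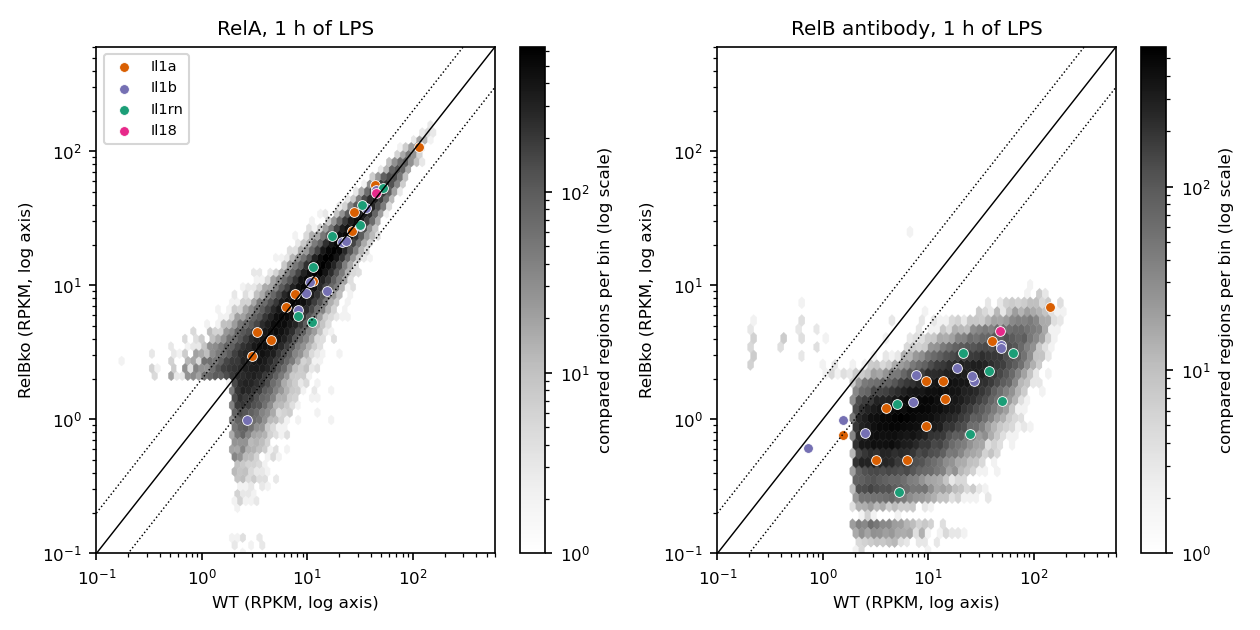
RPKM in RelBko (vertical, log axis) against WT (horizontal, log axis) for RelA at 1 h (left) and the RelB antibody at 1 h (right); grey shading counts all compared regions, coloured points are the 28 member regions, the solid line is equality and the dotted lines are 2-fold. The RelA points follow the line of equality, with 2 below the lower dotted line (1 of them called once the pseudocount is added). The RelB points lie below equality, with 24 of 24 compared members lower in RelBko by 2-fold or more. Most of these were compared only through WT, where they are high.

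RelB antibody signal at the family was low in RelBko cells at both times. At 1 h, 0 of 24 compared regions were higher and 24 were lower in RelBko, against 0.128% higher and 95.9% lower of all compared regions, so the members' share is near that of the table. Setting the median ratio of all compared regions to 1 left 1 higher and 8 lower. At 0 h, 0 of 25 were higher and 24 were lower, against 0.504% and 86.0% of all compared regions, and the same setting left 0 higher and 6 lower. Under that setting no share of all regions is given, so its counts are not read as a result about the family. All 24 regions compared at 1 h were enriched in WT, and 5 in RelBko. All 25 compared at 0 h were enriched in WT, and 12 in RelBko. Most were thus compared only through WT, where they are high, so these counts are no evidence about the family. The exception at 0 h, Il1a at 3186 bp downstream, held 3.36 RPKM in RelBko and 7.05 in WT and missed the limit at a log2 difference after the pseudocount of -0.97. Median log2 differences were -2.93 at 1 h and -2.33 at 0 h over the members, and -2.47 and -1.85 over all compared regions. Pooled over the members, RelBko stood at 0.0803 times WT at 1 h (0.0724 to 0.0889) and at 0.126 times WT at 0 h (0.115 to 0.137).

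With LPS, RelB in WT differed little over the family as a whole, with differences of both signs between regions. Of 25 regions compared, 0 were called higher and 3 lower at 1 h, against 11.0% higher and 1.68% lower of all compared regions. The median log2 difference was -0.04 over the members and 0.14 over all compared regions. Pooled over the 28 regions, the ratio of 1 h over 0 h was 0.997 (0.967 to 1.03), while single regions had intervals above 1 at 7 and below 1 at 9 of 28. Such intervals were counted at the members only, so their number is not read as a result about the family. The regions called lower, named after their values were seen, lay inside or downstream of Il1a and upstream of Il1b. They held 3.20 RPKM at 1 h and 8.52 at 0 h at 5286 bp downstream of the Il1a TSS, 13.7 RPKM at 1 h and 28.5 at 0 h at 3773 bp downstream of it, and 2.49 RPKM at 1 h and 5.78 at 0 h at -16778 of Il1b. The region at -16778 was compared only through 0 h, where it is high, since it was not enriched at 1 h. It was not called with a pseudocount of 1 RPKM or with enrichment at 4 RPKM and 4-fold.

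With the RelB antibody in RelBko cells, 12 of the 28 regions could be compared between times. Of these, 0 were called higher and 3 lower at 1 h, against 0.863% higher and 44.1% lower of all compared regions. All 12 were enriched at 0 h and 5 at 1 h, so most were compared only through 0 h, where they are high. Among the 3 called lower, this holds for Il1rn at -1304 and Il1a at 3186 bp downstream. The median log2 difference was -0.73 over the members and -0.93 over all compared regions. With the median ratio of all compared regions set to 1, 1 member was higher and 0 were lower, with no share of all regions to set beside them. Pooled over the 28 regions, 1 h stood at 0.637 times 0 h in RelBko (0.559 to 0.727).

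Relative to RelB, RelA in WT at 1 h was called higher at 6 and lower at 1 of 28 regions, against 7.45% and 7.21% of all compared regions. With the median ratio of all compared regions set to 1, 7 were higher and 0 lower, with no share of all regions to set beside them. The median log2 difference was 0.02 over the members and -0.16 over all compared regions. Of the 6, 3 belonged to Il1b, 2 to Il1a and 1 to Il1rn, and the strongest of them in RelA was the Il1a region at -1762. The others were weaker, and 4 of the 6 were not enriched for RelB, so they were compared only through RelA, where they are high, and their count is no evidence about the family. Pooled by gene, the ratio of RelA over RelB was 1.01 for Il1a (0.951 to 1.08), 1.11 for Il1b (1.03 to 1.19), 0.795 for Il1rn (0.739 to 0.855) and 0.936 for Il18 (0.802 to 1.09). The intervals of Il1b and Il1rn do not overlap, but they cover counting only. The Il1b sum holds regions compared only through RelA. Single regions ran in log2 from -0.42 to 2.96 at Il1b and from -1.14 to 1.04 at Il1rn. No difference between the genes is read from the pooled ratios.

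**Figure D4:**
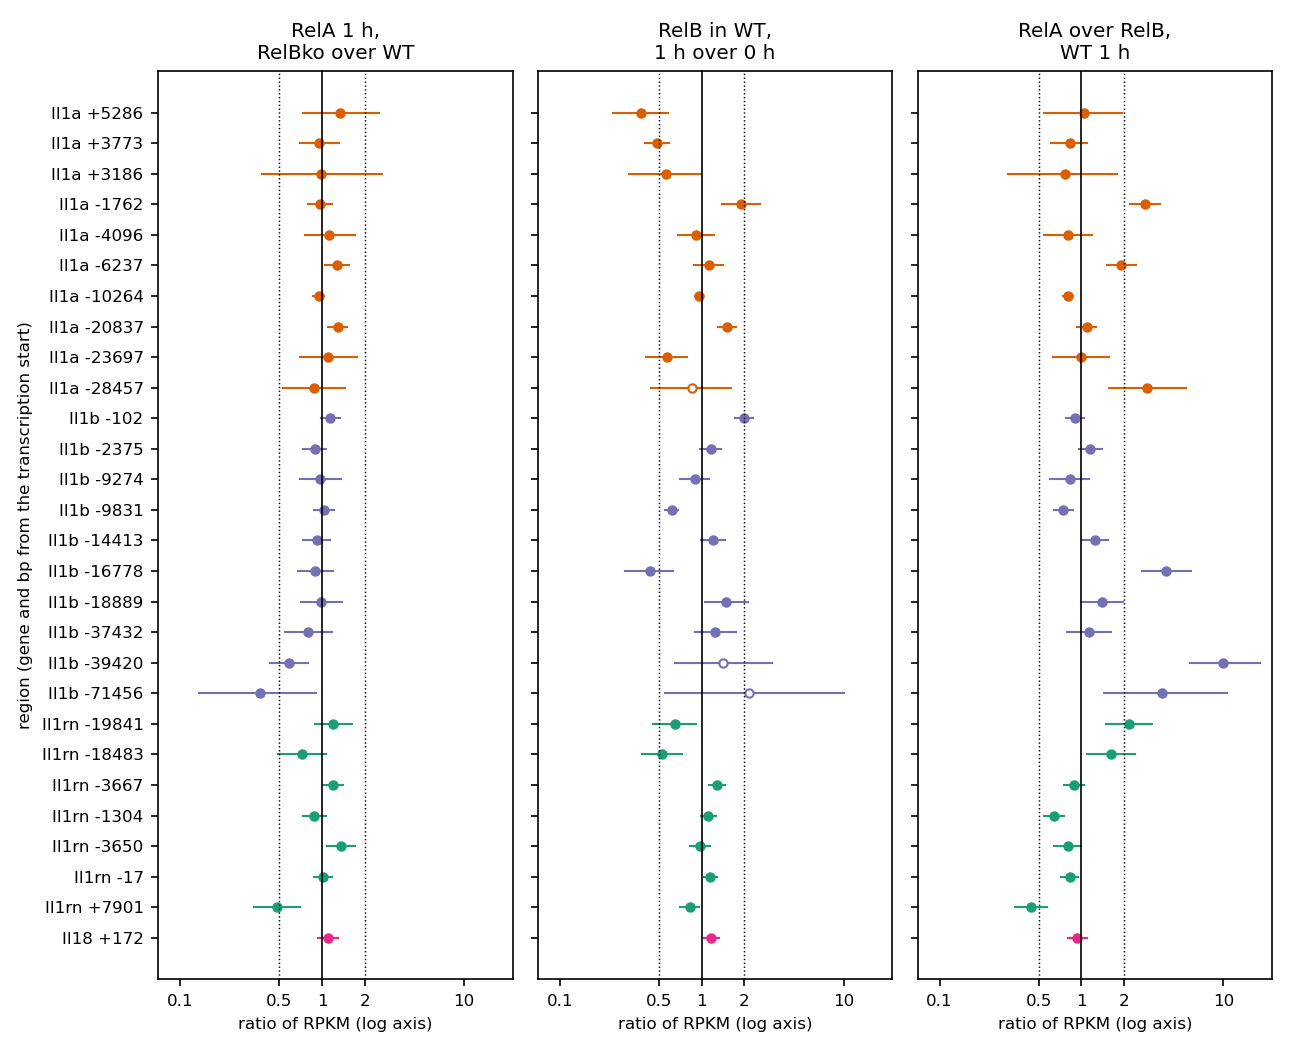
Ratio of RPKM with its exact 95% counting interval (log axes) at the 28 regions for RelA in RelBko over WT (left), RelB in WT at 1 h over 0 h (middle) and RelA over RelB in WT at 1 h (right); open circles are regions enriched in neither library and dotted lines mark 2-fold. The left panel stays near 1, with the Il1b region at -71456 and the Il1rn region at 7901 beyond the lower line before the pseudocount is added, the middle panel has intervals on both sides of 1, and the right panel has 6 regions above 2-fold and 1 below the lower limit.

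Other cytokine genes of activated dendritic cells gave close RelA ratios between genotypes and higher RelB ratios over time. The 44 regions of the interleukin 12 family genes (Il12a, Il12b, Il23a, Ebi3 and Il27) gave a pooled RelA ratio of RelBko over WT of 1.06 (1.03 to 1.10), against 1.02 (0.979 to 1.06) at the interleukin 1 family. Their pooled RelB in WT was 1.52 times as high at 1 h as at 0 h (1.48 to 1.56), with 14 of 43 compared regions higher and 1 lower against 11.0% and 1.68% of all compared regions, while the interleukin 1 family stood at 0.997 (0.967 to 1.03) with 0 of 25 higher and 3 lower. The 53 regions of Il6, Il10 and Lif lay between them, at 1.21 (1.19 to 1.24) with 6 of 53 higher and 1 lower, a share near that of the table. For RelB in WT, 43 of the 44 interleukin 12 family regions were enriched at 1 h and 36 at 0 h. Of the 53 regions of Il6, Il10 and Lif, 53 were enriched at 1 h and 51 at 0 h. Some regions of both groups were thus compared only through 1 h, where they are high. The counts of regions called are therefore no evidence about these groups or their contrast with the interleukin 1 family. These groups were chosen with earlier results known, and the differences between them carry counting error only.

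The rest of the pathway was read from 36 listed genes, each at its region of highest mean RPKM over the 6 ChIP libraries; 32 of them had a region within 100 kb. No region was assigned within that distance to Il36a, Il36b, Il36g or Il36rn. For RelA in RelBko over WT, 0 of 32 genes were called higher and 0 lower, against 0.498% and 2.85% of all 17276 genes compared. Their log2 differences ran from -0.51 to 0.56. With the RelB antibody at 1 h, 32 of 32 were lower in RelBko, against 97.9% of all genes. All 32 passed the filter through WT, where they are high, so this count is no evidence about the pathway.

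Among the other ligands, Il33, an alarmin of barrier tissues, held 35.8 RPKM of RelA in RelBko and 38.6 in WT, and Il1f10, the neighbour of Il1rn that encodes interleukin 38, held 11.2 in RelBko and 14.0 in WT. Among the 9 receptors and decoys, Sigirr, an inhibitory receptor, held 59.5 RPKM of RelA in RelBko and 65.4 in WT, and Il1rl2, the interleukin 36 receptor, held 59.3 in RelBko and 60.7 in WT. The median log2 difference in RelA was -0.06 over the receptors and -0.01 over all genes compared.

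Among the signalling genes, Traf6, the ubiquitin ligase below the receptors, held 48.0 RPKM of RelA in RelBko and 39.3 in WT, and Map3k7, the TAK1 kinase, held 47.9 in RelBko and 53.0 in WT. By mean RPKM, the strongest regions of the 4 lists were at inflammasome genes. Mefv, which encodes the inflammasome sensor pyrin, held 102 RPKM of RelA in RelBko and 111 in WT, and Nlrp3, the sensor best known for interleukin 1 beta release, held 93.3 in RelBko and 96.8 in WT. The median log2 difference in RelA was 0.08 over the signalling genes and -0.11 over the processing genes.

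RelB in WT at 1 h over 0 h was called higher at 2 of the 32 genes and lower at 0, against 6.58% and 1.09% of all 17048 genes compared. The 2 were Myd88, the adaptor of the receptors, at 17.4 RPKM at 1 h and 7.85 at 0 h, and Tollip, at 9.09 RPKM at 1 h and 3.39 at 0 h. RelA over RelB in WT was called higher at 2 genes and lower at 2, against 6.66% and 5.41% of all 17537 genes compared. The higher ones were Irak3, an inhibitor of the pathway, and Nek7, a partner of Nlrp3; the lower ones were Il18r1, the interleukin 18 receptor chain, and Casp8, a caspase that can also cut interleukin 1 beta. These 6 genes were named after their calls were seen.

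By the Euclidean distance over the 7 log2(RPKM + 0.5) values of the strongest region of each of 18214 genes, the genes nearest to Il1a were Slc38a2 (0.43), Tnfrsf1b (0.46) and Lmna (0.47). The genes nearest to Il1b were Spint2 (0.40), Vps37c (0.52) and Gnpda1 (0.52). For Il1rn they were Rnf220 (0.33), Myh9 (0.38) and Vdr (0.38), and for Il18 they were Tmem154 (0.34), Zcchc6 (0.38) and Anxa6 (0.39). Slc38a2, for example, held 107 RPKM of RelA in RelBko and 110 in WT, and 133 RPKM of RelB in WT at 1 h and 138 at 0 h. The distance rests on 1 library per group and describes only these levels.

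The table assigned each region to a single gene, so other regions lie among those of the family without being counted. Within 20 kb of the members, regions were assigned to Gm14023 and Il1bos near Il1a and Il1b, to Il1f10 and Psd4 near Il1rn, and to Pts, Bco2 and Tex12 near Il18. The Il18 TSS lay close to that of Bco2, whose promoter region held 20.9 RPKM of RelA in RelBko and 14.7 in WT. Which gene a region acts on cannot be read from distance.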

How the data were processed

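BMDCs were crosslinked with 1.0 mM DSG plus 1.0% PFA, per the labels' protocols, which name a RelA antibody alone although 4 libraries are labelled RelB. Beside LPS, the treatment text gives the reagent name of a CpG oligonucleotide; LPS is written throughout, after the treatment labels. Named in the submitters' processing notes are mm9, bedtools, HISAT2 and HOMER; how regions were chosen is not given in the sources used here. RPKM values were computed by the authors, per the file headers. RPKM times length gave whole reads (100% of values within 0.01 of a read), with length taken as end minus start, so starts were raised by 1 to count from 1; the files do not state this. No region held 0 reads in any library, so 1 read may have been added to each count.

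Log2 ratios used RPKM plus 0.5; intervals are exact Clopper-Pearson at 95% and cover counting error only, as reads without molecular identifiers are not independent. The members, lists and compared groups were chosen with earlier results of these data known. Regions named in full were, per gene, the one nearest the TSS and the one of highest mean RPKM, plus any called in RelA between genotypes; each list names its 2 strongest genes. Promoters came from the RefSeq table of GRCm38.p6, whose distance between the Il1a and Il1b starts (61167 bp) equals that in mm9 within 1 bp. Python 3.11.15, pandas 2.3.3, numpy 2.4.6, scipy 1.17.1 and matplotlib 3.10.9 were used; the code was tested on simulated data. The alternatives are given at the end.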

Additional observations from a re-analysis of the deposited data

Results flagged for a closer look

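At 3 of the regions described in full, RelB antibody signal at 1 h over 0 h had one sign in RelBko and the other in WT. The log2 difference, RelBko minus WT, was 0.72 at -9831 of Il1b (0.02 in RelBko and -0.70 in WT), -0.60 at the Il1rn promoter (-0.40 in RelBko and 0.20 in WT) and -0.95 at the Il18 region (-0.74 in RelBko and 0.21 in WT). The differences were not tested, since each group has 1 library, and the RelBko values rest on 22 to 47 reads. The region at -9831 of Il1b was enriched in neither RelBko RelB library, at 3.40 RPKM at 1 h and 3.34 at 0 h against 2.21 in the input. It was thus not among the regions compared between times in RelBko. The RelBko ratio intervals at -9831 of Il1b (0.551 to 1.90) and at the Il1rn promoter (0.397 to 1.33) held equal signal. Over all compared regions the median was -0.93 in RelBko and 0.14 in WT. With those medians set to 0, the Il1rn promoter (0.53 in RelBko and 0.06 in WT) and the Il18 region (0.19 in RelBko and 0.07 in WT) no longer had opposite signs.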

How the results depend on the processing

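Counts were recomputed under 9 alternatives and the log2 differences of the 7 regions described in full under 5 of them. Of those 210 log2 values, 180 stayed within their counting interval and 30 did not; 10 turned sign, 6 with the median ratio of compared regions set to 1, 3 with that of regions without enrichment set to 1 and 1 with 1 read taken off, none of them a difference called at 2-fold. In the first setting RelB in RelBko at 1 h over 0 h turned to 0.53 at the Il1rn promoter, against -0.40 as reported, and RelB in RelBko over WT at 1 h turned to 2.31 at -71456 of Il1b, against -0.15. For RelA in RelBko over WT, the 1 region called lower became 2 with a pseudocount of 0.1 RPKM, 0 with a pseudocount of 1 RPKM, 3 at a 1.5-fold limit, 0 with enrichment at 4 RPKM and 4-fold, and 0 within 10 kb of the TSS. Setting the median ratio of compared regions to 1 shifted the log2 values of RelB in RelBko over WT by 2.47 (1 h) and 1.85 (0 h). It left 1 higher and 8 lower regions at 1 h and 6 lower at 0 h. With no such shift, 15 of the 16 regions compared within 10 kb of the TSS were lower at 0 h. The counts within 10 kb for RelA between genotypes and for RelA over RelB are also of 16 regions. RelB in WT at 1 h over 0 h gave 3 higher and 7 lower regions at a 1.5-fold limit. In RelBko the 3 lower regions became 5 with a pseudocount of 0.1 RPKM, 5 with 1 read taken off each count, 0 with a pseudocount of 1 RPKM, 1 with enrichment at 4 RPKM and 4-fold, 7 at 1.5-fold, and 1 higher and 0 lower with the median set to 1. RelA over RelB gave 0 lower with the median set to 1, 2 lower at 1.5-fold, 1 higher within 10 kb, and 4 higher with a pseudocount of 1 RPKM or with enrichment at 4 RPKM and 4-fold. Setting the median to 1 shifted the other log2 values by 0.06 (RelA between genotypes), -0.14 (RelB in WT over time) and 0.16 (RelA over RelB). All counts under the alternatives are of member regions only. No share of all regions is given beside them, so they describe how the calls move and not the family. No paired analysis was possible because each group has 1 library. Depth limits the weakest regions, such as that at -71456 of Il1b with 8 and 16 reads.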
